A study of Mus musculus with 10 samples.

Results

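The libraries labelled IL12 were compared with the libraries labelled Mock, 2 of each, which are 4 of the 10 libraries in the series. They were chosen by group label alone, and the comparison covers 15777 tested genes of the 55359 gene identifiers in the count table. All cells were pmel-1 lymphocytes, spleen T cells of mice whose transgenic T cell receptor recognises the melanocyte antigen gp100. They were activated with hgp100 for 48 h, kept in hIL-2 for a further 48 h, electroporated, and collected for RNA sequencing 24 h later. IL12 cells received scIL-12 mRNA, a single-chain form of interleukin 12. Mock cells were electroporated too, but no label or file header used here names their mRNA. DRIL18 cells, 2 libraries used below for a direct contrast, were electroporated with DRIL18 mRNA, a decoy-resistant variant of interleukin 18. Strain, age and sex of the mice are likewise not given in these sources, and the cultures started from spleen cells, so cells other than CD8 T cells could have remained.

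Interleukin 12 is made by dendritic cells and macrophages and binds a receptor on activated T and NK cells that is built from the Il12rb1 and Il12rb2 chains. The receptor-bound kinases Jak2 and Tyk2 then phosphorylate Stat4, which moves to the nucleus and turns on genes of type 1 immunity. In CD8 T cells the pathway is known for interferon-γ secretion, for induction of the interleukin 18 receptor and for effector differentiation.

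The 4 libraries held between 32076695 and 34713321 counts, within the range of the series of 31281944 to 35062545. Replicates differed by more than counting noise, with a chi-square per degree of freedom of 5.13 in IL12 and 2.65 in Mock, and a correlation of log2 CPM of 0.992 and 0.993 over the tested genes. All levels below are CPM, read counts scaled to a common depth, on TMM-scaled library sizes, and log2 fold changes are IL12 minus Mock with an approximate standard error (SE). This SE was worked back from the test below, as the size of the log2 fold change divided by the square root of the F statistic. It is not a fitted error, and for genes with few counts in a group it should not be read as the precision of the fold change. Where a pair of values stands for a group, replicate 1 comes before replicate 2. A gene is said to have risen or fallen when it passed edgeR's quasi-likelihood test at a Benjamini-Hochberg adjusted p under 0.05 over all tested genes. By this rule 7356 genes (46.6%) changed, of which 3635 (23.0%) were higher and 3721 (23.6%) lower in IL12. Counts of list members below are to be read beside these shares. On library totals alone, with no scaling factor, the split moved to 2641 higher and 4873 lower, and the median log2 fold change of all tested genes moved to -0.09, against -0.01 with TMM factors. Most changes were small, since 4875 of the changed genes moved by less than 1.5-fold. At least 2-fold higher were 724 genes (4.59%) and at least 2-fold lower 685 genes (4.34%). A stricter test against a change of 1.5-fold (glmTreat, same adjustment) called 1247 genes (7.90%), 643 higher and 604 lower, whereas DESeq2 against the same change called 477 higher and 355 lower. Both IL12 libraries lay above both Mock libraries in 35.1% of all tested genes and below both in 36.2%. Among the 7356 changed genes this held for 3621 and 3716, so a lack of overlap adds little to a call.

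**Figure D1:**
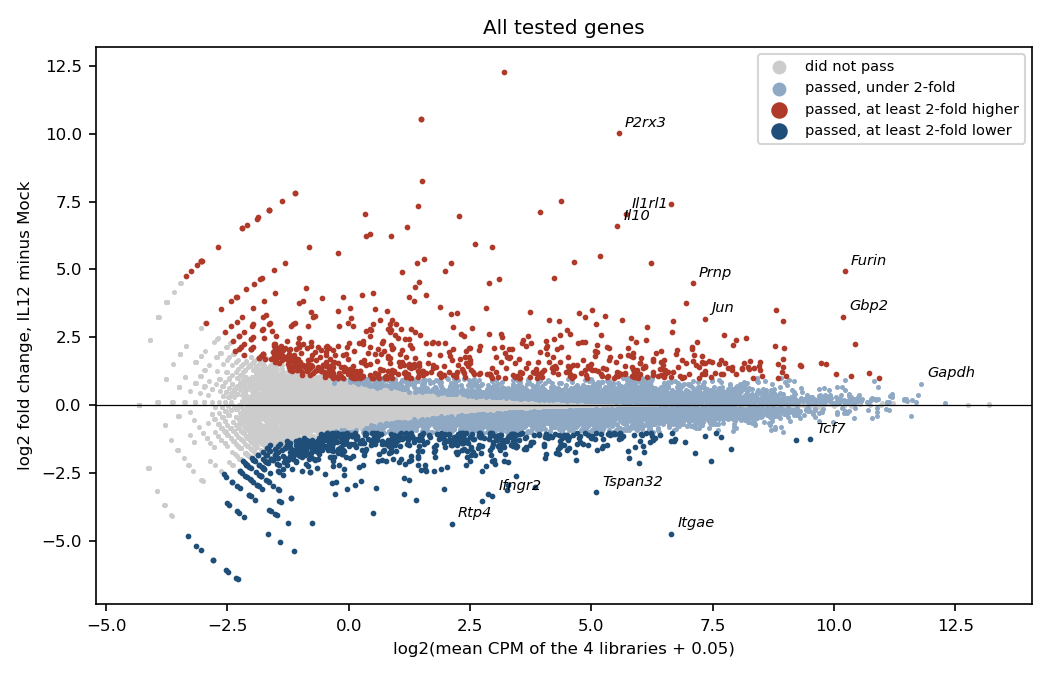
Log2 fold change, IL12 minus Mock, against the log2 of the mean CPM of the 4 libraries (plus 0.05) for the 15777 tested genes. Each point is a gene, and its colour gives whether it passed the test and whether it moved by at least 2-fold. Furin and Gbp2 stand out among abundant genes above the line and Itgae below it.

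The delivered mRNA could not be read in these counts. Il12a, the gene of the smaller IL-12 subunit, had 2 and 1 counts in IL12 and 3 and 4 counts in Mock. Il12b, the gene of the larger subunit, had 0 counts in all 4 libraries. The markers of the labelled cell were abundant: Cd8a stood at 763 and 739 CPM in IL12, against 919 and 903 CPM in Mock, and Cd3e at 366 and 356 CPM in IL12, against 395 and 423 CPM in Mock. The CD8 T cell list was lower in IL12 by a small amount, with 9 of 10 members lower, 0 higher and a median log2 fold change of -0.24. The receptor transcripts Trbc2 (2752 and 2548 CPM in IL12, against 3571 and 3464 CPM in Mock) and Trbv14 (1485 and 1459 CPM in IL12, against 2019 and 2043 CPM in Mock) were among the 6 genes with the largest loss of CPM.

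Markers of other spleen cells ranged from absent to abundant, and several lists moved with the group. The γδ T cell list was lower, with 5 of 7 members lower and a summed level of 72.4 and 63.8 CPM in IL12, against 128 and 131 CPM in Mock. The B cell list had 6 of 14 members lower and summed to 486 and 451 CPM in IL12 and 698 and 701 CPM in Mock, nearly all of it Ighm (453 and 421 CPM in IL12, against 657 and 659.7 CPM in Mock). The defining B cell gene Cd79a, a chain of the B cell receptor, stood at 4.21 and 3.11 CPM in IL12, against 4.78 and 4.49 CPM in Mock, and did not pass the test. Its partner chain Cd79b fell to 3.76 and 4.12 CPM in IL12, against 8.01 and 6.72 CPM in Mock, and Fcer2a (-1.50), Cr2 (-1.37), Ighd (-0.49) and Igkc (-0.33) were the other members that fell, of which Fcer2a, Cr2 and Igkc each lost the call without 1 or more of the 4 libraries. Of 5 tested dendritic cell markers, 2 were higher (Xcr1 2.20, Batf3 0.69) and 1 lower (Itgax -1.95), while Clec9a, Cd209a and Siglech had 0 counts in all 4 libraries. Of 3 tested monocyte markers 1 was higher (Ly86 0.83) and 1 lower (Lyz2 -1.69, but -0.35 and not past the test without Mock replicate 1), and C1qa, C1qb, C1qc and Mertk had 0 counts. The NK cell list had 3 of 7 tested members higher and 2 lower and summed to 3042 and 3057 CPM in IL12 and 1599 and 1624 CPM in Mock, nearly all of it Gzma, Nkg7 and Il2rb, which CD8 T cells express too, while Ncr1 and Klrb1c held 0 to 5 counts a library. The CD4 and regulatory T cell list had 1 of 8 members higher, Il2ra, and 3 lower, and Cd4 itself stood at 4.25 and 3.81 CPM in IL12, against 4.58 and 5.47 CPM in Mock. The neutrophil genes held 0 to 3 counts a library. Whether these shifts in markers take part in the results below was not tested. In bulk libraries, fewer cells of a type and less RNA per cell cannot be told apart.

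The gene that gained most CPM in IL12 was Furin (ENSMUSG00000030530.16), a protease that cleaves the precursors of many secreted proteins and receptors. It stood at 2263 and 2346 CPM in IL12, against 76.2 and 74.9 CPM in Mock, a 30.5-fold rise (log2 fold change 4.93 ± 0.04 SE, adjusted p = 3.81e-36). The IL12 libraries lay far above the Mock libraries and close to each other. The gene beside it on the chromosome rose too. Fes, a tyrosine kinase gene, stood at 143 and 149 CPM in IL12, against 3.96 and 3.69 CPM in Mock (5.25 ± 0.08 SE). The predicted genes on the other side of Furin were near silent in Mock: Gm15544 had 52 counts summed across the IL12 libraries and 0 across the Mock libraries, at least 19.2-fold higher with 3 counts over the group in place of 0. Gm44851 had 1136 counts in IL12 and 0 in Mock, at least 418-fold higher by the same floor, but it overlaps the start of Furin in the RefSeq annotation of GRCm38.p6, and whether counting used strand is not given, so its reads cannot be told apart from those of Furin. The next gene out, Blm, rose less (0.88 ± 0.05 SE).

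Prnp, the gene of the prion protein, stood at 255 and 266 CPM in IL12, against 11.7 and 11.1 CPM in Mock, a log2 fold change of 4.51 ± 0.06 SE. Cytokine and cytokine receptor genes were among the largest rises. Il10, the gene of an immunosuppressive cytokine, stood at 92.9 and 89.4 CPM in IL12, against 1.08 and 0.803 CPM in Mock, a 96.3-fold rise (log2 fold change 6.59 ± 0.12 SE, adjusted p = 1.85e-28). Il1rl1 encodes ST2, the receptor for interleukin 33, and stood at 104 and 103 CPM in IL12, against 0.849 and 0.714 CPM in Mock (7.04 ± 0.11 SE, adjusted p = 8.12e-30). In both genes the Mock libraries were near 1 CPM and the IL12 libraries near 100 CPM. The lack of overlap was a condition of the rule that named them. Ifng, the interferon-γ gene, stood at 209.8 and 189 CPM in IL12, against 0.906 and 1.43 CPM in Mock (7.42 ± 0.08 SE). Its neighbour Ifngas1, a noncoding RNA of the same locus, rose to 53.1 and 52.7 CPM in IL12, against 5.38 and 5.74 CPM in Mock (3.25 ± 0.09 SE).

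The other genes among the 12 largest rises at a mean of 5 CPM or more held receptors known from other tissues. P2rx3, an ATP-gated channel known from sensory neurons, stood at 94.4 and 94.5 CPM in IL12, against 0.0849 and 0.0892 CPM in Mock. Coro6, a coronin that binds actin filaments, stood at 31.1 and 29.9 CPM in IL12, against 0.283 and 0.149 CPM in Mock, and the predicted gene Gm49751 at 41.1 and 41.1 CPM in IL12, against 0.255 and 0.178 CPM in Mock. Ankrd55, an ankyrin repeat gene, stood at 8.82 and 10.1 CPM in IL12, against 0.0283 and 0.119 CPM in Mock. The other 4 were near the limit of counting in Mock. Rufy4, a gene linked to autophagy, had 346 counts summed across the IL12 libraries and 0 in Mock, at least 127-fold higher. Unc5c, a netrin receptor, had 345 counts in IL12 and 0 in Mock, at least 127-fold higher. Serpinb5 and Cxcr1 had 1 and 2 counts over both Mock libraries. Their ratios were 382 for Serpinb5 (95% interval 68.2 to 15144) and 182 for Cxcr1 (50.1 to 1512), intervals that cover counting error only.

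**Figure D2:**
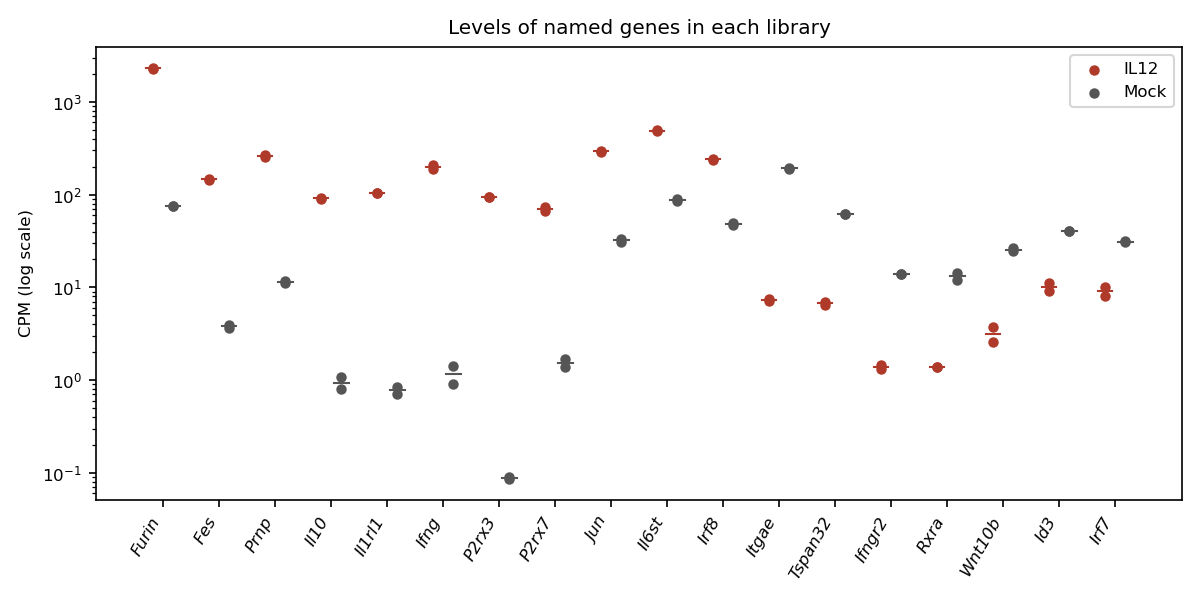
CPM on a log scale of 18 named genes in each library, IL12 in red and Mock in grey. Points are libraries and short bars group means. Furin to Irf8 are higher in IL12 and Itgae to Irf7 lower. The groups do not overlap in any of the 18, as in nearly all genes past the test (3621 above and 3716 below of 7356). Some of the 18 were named by a rule that required this.

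Among the falls, Itgae, the αE chain of the integrin CD103, led with 7.09 and 7.52 CPM in IL12, against 194 and 191 CPM in Mock, a 26.3-fold fall (log2 fold change -4.72 ± 0.06 SE, adjusted p = 7.94e-32). Its integrin partner Itgb7 was one of the 6 genes with the largest loss of CPM, with 342 and 360.1 CPM in IL12, against 835 and 847 CPM in Mock, and so was Myh9, a nonmuscle myosin heavy chain, with 1575 and 1673 CPM in IL12, against 2130 and 2143 CPM in Mock. Tspan32, a tetraspanin of blood cells, stood at 6.53 and 6.92 CPM in IL12, against 61.4 and 61.1 CPM in Mock (-3.19 ± 0.08 SE). The groups did not overlap in any of these, which the rule for the 12 largest falls required of Itgae and Tspan32. Transcription regulators among the 12 largest falls were Cbfa2t3, a corepressor (1.503 and 0.661 CPM in IL12, against 11.5 and 13.1 CPM in Mock), and Rxra, the retinoid X receptor α (1.37 and 1.38 CPM in IL12, against 12.1 and 14.2 CPM in Mock). Rtp4, an interferon-inducible gene, fell to 0.294 and 0.503 CPM in IL12, against 8.29 and 8.15 CPM in Mock, and Cmpk2, an interferon-inducible nucleotide kinase, to 2.38 and 1.54 CPM, against 18.3 and 15.8 CPM in Mock. The Wnt ligand gene Wnt10b stood at 3.76 and 2.55 CPM in IL12, against 24.5 and 26.3 CPM in Mock (-3.01 ± 0.13 SE). Edaradd, an adaptor of the ectodysplasin receptor (-3.07 ± 0.20 SE), Rnf144a, a ubiquitin ligase (-2.92 ± 0.13 SE), Drc1, a gene of ciliary dynein regulation (-2.60 ± 0.12 SE), and Cacnb1, a calcium channel subunit (-2.41 ± 0.15 SE), completed the 12 together with Ifngr2, below. Haspin, a kinase gene that lies within Itgae in the annotation, fell too (-0.88 ± 0.06 SE), and reads of the overlapping pair may not be separable.

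The receptor and kinases of IL-12 itself moved little apart from Il12rb2. Of 13 receptor, JAK and STAT genes, 6 rose and 5 fell, with a median log2 fold change of -0.07. The signalling chain Il12rb2 stood at 264 and 275 CPM in IL12, against 92.5 and 85.8 CPM in Mock (1.60 ± 0.04 SE, adjusted p = 9.26e-24). The other chain, Il12rb1, rose by only 0.18 ± 0.04 SE. Stat4, the factor activated by the receptor, was lower, with 83.5 and 79.2 CPM in IL12, against 102 and 96.3 CPM in Mock (-0.28 ± 0.05 SE, adjusted p = 4.76e-06). Among the other STATs, Stat5a (0.71), Stat3 (0.55) and Stat5b (0.25) rose, and Stat6 (-0.17) and Stat2 (-0.42) fell. Of the kinases Jak3 (0.45) rose, Tyk2 (-0.27) and Jak1 (-0.14) fell, and Jak2 did not pass (-0.08, adjusted p = 0.151).

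Genes that restrain cytokine signals changed in both directions. Of 17 tested, 4 rose, a share close to the 23.0% over all tested genes, and 7 fell. Socs3, an inhibitor of cytokine receptors of the gp130 family, stood at 118 and 119 CPM in IL12, against 55.4 and 55.2 CPM in Mock, and Socs1, an inhibitor of JAK kinases, at 107 and 106 CPM in IL12, against 63.9 and 70.1 CPM in Mock. Usp18, which blocks the type I interferon receptor, rose to 35.3 and 35.1 CPM in IL12, against 6.93 and 4.70 CPM in Mock (2.59 ± 0.11 SE), and Ptpn2, a phosphatase acting on JAKs and STATs, rose as well (0.73). The STAT5-responsive feedback genes Cish and Socs2 fell, with Cish at 93.9 and 102 CPM in IL12, against 168 and 165 CPM in Mock and Socs2 at 41.5 and 37.4 CPM in IL12, against 61.6 and 66.7 CPM in Mock. The STAT inhibitor Pias3 (-0.96) and the phosphatase Ptpn1 (-0.24) were also lower.

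Receptors of the interleukin 1 and interleukin 18 family held larger rises. Of 14 tested genes, 8 rose and 3 fell. Il18r1, the binding chain of the IL-18 receptor, stood at 814 and 841 CPM in IL12, against 73.6 and 72.0 CPM in Mock and Il18rap, its partner chain, at 419 and 429 CPM in IL12, against 80.8 and 79.5 CPM in Mock. The shared adaptor Myd88 stood at 125 and 132 CPM in IL12, against 51.4 and 51.8 CPM in Mock (1.31 ± 0.05 SE), and the kinase genes Irak2 (1.24) and Irak4 (0.27) rose with it. Irak3, an inhibitory member of that kinase family, fell to 0.523 and 0.598 CPM in IL12, against 1.70 and 1.93 CPM in Mock (-1.69 ± 0.27 SE). The soluble IL-18 inhibitor Il18bp (0.57) and the decoy receptor Il1r2 (2.15) rose, the inhibitory receptor Sigirr (-0.19) and the ubiquitin ligase Traf6 (-0.17) fell, and Il1rl2 (0.25, adjusted p = 0.366), Irak1 (0.01, adjusted p = 0.879) and Il1rap (-0.20, adjusted p = 0.0674) did not pass. Slc9a2, a sodium-proton exchanger gene near Il1rl1, Il18r1 and Il18rap on the chromosome, stood at 5.19 and 5.002 CPM in IL12, against 0.113 and 0.149 CPM in Mock (5.25 ± 0.44 SE).

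Promoters of 3 genes picked from this pathway are shown because STAT factors bind the palindrome TTCNNNGAA, which reads the same on both strands. As the genes were picked, their matches do not give the share of pathway genes with the motif. The windows hold 250 bases before and 50 from the start of the gene (RefSeq, GRCm38.p6), and capitals mark the matches. Ifng has 1 match in chr10:118440796-118441095 (plus strand), 249 bases before the start, Il12rb2 has 1 in chr6:67376139-67376438 (minus strand), 123 bases before it, and Il18r1 has 2 in chr1:40465756-40466055 (plus strand), 219 and 152 bases before it. Il18r1 has 3 annotated windows, of which this is the one with matches.
Ifng: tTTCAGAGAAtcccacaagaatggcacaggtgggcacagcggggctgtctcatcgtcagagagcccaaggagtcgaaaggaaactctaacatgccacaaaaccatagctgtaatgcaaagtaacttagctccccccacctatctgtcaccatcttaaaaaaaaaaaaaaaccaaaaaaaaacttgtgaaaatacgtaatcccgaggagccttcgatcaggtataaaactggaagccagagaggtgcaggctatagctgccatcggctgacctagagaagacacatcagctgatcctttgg
Il12rb2: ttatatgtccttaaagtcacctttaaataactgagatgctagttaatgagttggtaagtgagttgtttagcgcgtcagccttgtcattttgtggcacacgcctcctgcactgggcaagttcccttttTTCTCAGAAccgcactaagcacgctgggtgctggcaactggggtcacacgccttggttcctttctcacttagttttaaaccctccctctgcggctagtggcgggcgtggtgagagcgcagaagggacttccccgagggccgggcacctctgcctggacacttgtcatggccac
Il18r1: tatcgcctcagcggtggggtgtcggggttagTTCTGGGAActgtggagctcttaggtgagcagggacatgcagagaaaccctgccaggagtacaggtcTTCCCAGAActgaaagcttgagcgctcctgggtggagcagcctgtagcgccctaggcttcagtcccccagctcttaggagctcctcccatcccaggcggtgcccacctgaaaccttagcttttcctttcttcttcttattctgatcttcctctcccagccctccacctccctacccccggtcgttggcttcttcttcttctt
The motif occurred in 8.30% of all 32851 promoter windows and in 8.36% of the 10365 tested genes with a window. It occurred in 48 of 446 genes at least 2-fold higher (10.8%) and in 31 of 442 genes at least 2-fold lower (7.01%). No match overlapped the other motifs searched. A match describes the letters only, and binding was not measured.

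Other cytokine receptors changed in both directions, with 8 of 17 higher and 6 lower. Il6st, the gp130 chain shared by the receptors for interleukin 6 and interleukin 27, stood at 487 and 497 CPM in IL12, against 85.7 and 89.3 CPM in Mock (2.49 ± 0.04 SE, adjusted p = 3.76e-29). Il6ra, the chain that binds interleukin 6 itself, fell to 1.70 and 0.755 CPM in IL12, against 6.31 and 5.98 CPM in Mock (-2.33 ± 0.22 SE). Il2ra, the high-affinity chain of the IL-2 receptor, was among the 6 genes with the largest gain, with 2310 and 2258 CPM in IL12, against 479 and 477 CPM in Mock, while Il2rb stood at 1400 and 1441 CPM in IL12, against 950.4 and 975 CPM in Mock. The TNF receptor gene Tnfrsf1b rose to 467 and 469.7 CPM in IL12, against 151 and 148 CPM in Mock. Il10ra (0.45), the ligand-binding chain for interleukin 10, rose, and so did Il7r, the chain that binds interleukin 7 (0.27 ± 0.04 SE).

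Of 4 interferon receptor genes 3 fell and 0 rose. Ifngr2, the signalling chain of the interferon-γ receptor, stood at 1.44 and 1.32 CPM in IL12, against 14.01 and 14.1 CPM in Mock, a 10.2-fold fall (log2 fold change -3.35 ± 0.15 SE, adjusted p = 1.87e-18). Both chains of the type I receptor were lower, with Ifnar2 at 47.5 and 47.2 CPM in IL12, against 105 and 104 CPM in Mock (-1.14 ± 0.05 SE) and Ifnar1 at 136 and 134 CPM in IL12, against 217 and 215 CPM in Mock (-0.68 ± 0.04 SE). In these 3 genes both IL12 libraries lay below both Mock libraries, as in 36.2% of all tested genes. Ifngr1, the ligand-binding chain for interferon-γ, stood at 285 and 284 CPM in IL12, against 296 and 305 CPM in Mock and did not pass (log2 fold change -0.08, adjusted p = 0.0845), though on library totals alone it did (adjusted p = 0.000369). Ifnar2, Il10rb, Ifnar1 and Ifngr2 form a cluster on the chromosome, and Il10rb, a receptor chain shared by the interleukin 10 family, fell as well (-0.54 ± 0.06 SE). Tmem50b, the next tested gene beyond Ifngr2, also fell (-0.86 ± 0.07 SE).

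Of 28 cytokine genes 12 rose and 7 fell, the latter a share close to the 23.6% over all tested genes. Besides Ifng and Il10, the myeloid growth factor genes Csf2 (4.998 and 4.66 CPM in IL12, against 0.0849 and 0.387 CPM in Mock) and Csf1 (7.55 and 7.96 CPM in IL12, against 1.36 and 0.744 CPM in Mock) rose. Tnfsf4, the ligand OX40L, stood at 21.1 and 19.2 CPM in IL12, against 3.62 and 3.93 CPM in Mock, and Il24, a cytokine gene next to Il10, at 4.90 and 2.96 CPM in IL12, against 0.962 and 0.863 CPM in Mock. Il21, a cytokine for B and T cells, had 21 counts in IL12 and 0 in Mock, at least 7.73-fold higher. The death ligand Fasl (1.16) and the cytokine Lif (1.15) rose. Ebi3, a subunit of interleukin 27 and interleukin 35, fell to 3.92 and 3.37 CPM in IL12, against 10.5 and 12.2 CPM in Mock, and the RANK ligand gene Tnfsf11 (-1.35) fell too.

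Chemokine genes were scarce, and 2 of 10 tested rose while 2 fell. Both shares were close to those over all tested genes, 23.0% and 23.6%. Ccl5, a chemokine of effector and memory T cells, fell to 7.87 and 5.06 CPM in IL12, against 18.8 and 18.2 CPM in Mock (-1.52 ± 0.12 SE), and Ccl22 fell at under 1 CPM (-1.58). The call of Ccl22 was lost in DESeq2, limma-voom and with the mark bis as a covariate, and its log2 fold change was -2.45 without IL12 replicate 1, -1.02 without IL12 replicate 2 and -0.74 without Mock replicate 1. Xcl1, a ligand for dendritic cells, stood at 4.12 and 3.93 CPM in IL12, against 1.84 and 1.49 CPM in Mock, and Cxcl10, an interferon-inducible T cell chemokine, at 4.64 and 2.58 CPM in IL12, against 0.453 and 0.565 CPM in Mock. Cxcl9 (1.99, adjusted p = 0.0938), Cxcl11 (1.90, adjusted p = 0.321), Ccl4 (0.45, adjusted p = 0.315), Ccl3 (0.37, adjusted p = 0.448), Cxcl16 (0.11, adjusted p = 0.861) and Ccl1 (-0.65, adjusted p = 0.267) did not pass. Of 21 chemokine and migration receptors, 7 rose and 5 fell. Cxcr6, the receptor for Cxcl16, stood at 512 and 515 CPM in IL12, against 189 and 185 CPM in Mock. Gpr183, an oxysterol receptor that guides lymphocytes, stood at 55.6 and 54.9 CPM in IL12, against 14.5 and 14.01 CPM in Mock. S1pr1, the receptor by which T cells leave lymph nodes, fell to 60.1 and 59.2 CPM in IL12, against 152 and 144 CPM in Mock (-1.31 ± 0.05 SE). Cxcr5 (-1.24), a B cell follicle receptor, and Ptger2 (-1.15), a prostaglandin receptor, fell as well.

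Adhesion genes mostly fell. Of 26 tested, 15 were lower and 5 higher, with a median log2 fold change of -0.31. Itga4, the α4 chain that pairs with Itgb7 or Itgb1, stood at 126 and 127 CPM in IL12, against 280.3 and 279 CPM in Mock (-1.15 ± 0.04 SE). Itgax (-1.95), the integrin chain CD11c, fell at under 1 CPM. Icam1, the ligand of the integrin LFA-1, rose to 131 and 128 CPM in IL12, against 42.9 and 43.2 CPM in Mock. Itga7, a laminin receptor chain, rose but differed between the IL12 libraries (3.85 and 12.4 CPM in IL12, against 2.43 and 2.26 CPM in Mock), and its log2 fold change was 1.80, or 0.71 without IL12 replicate 2. TGF-β is known to induce Itgae in T cells, and whether its pathway takes part in the fall of Itgae was not tested. The list of TGF-β receptors, SMADs and their regulators had 9 of 21 members lower and 2 higher. On library totals alone 1 was higher, and fewer were also higher without IL12 replicate 1. The receptor gene Tgfbr1 stood at 23.8 and 21.7 CPM in IL12, against 53.2 and 52.5 CPM in Mock (-1.22 ± 0.06 SE). The signal transducer Smad3 (-0.58), the repressors Ski (-0.78) and Skil (-0.36), and Smurf2 (-0.43) and Smad1 (-0.36) were lower, and Bmpr1a (0.50) was higher.

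Enzymes that build selectin ligands and other surface glycans were lower in 13 and higher in 4 of 23. The sialyltransferase St6gal1 fell to 19.9 and 30.8 CPM in IL12, against 82.5 and 81.6 CPM in Mock, and Fut4 (-1.51), B3gnt5 (-1.08), St3gal1 (-0.96) and St3gal2 (-0.95) fell too. Gcnt1, the branching enzyme of core O-glycans that P-selectin ligands need, rose to 20.3 and 23.8 CPM in IL12, against 3.59 and 3.87 CPM in Mock (2.56 ± 0.14 SE). The sulfotransferase Chst2 (1.18) and the glycan-initiating enzyme Galnt3 (1.06) also rose.

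Some cytotoxic genes rose and the most abundant granzyme did not. Of 24 tested, 12 rose and 4 fell, or 1 without Mock replicate 2. Gzma, a granule protease, stood at 936 and 927 CPM in IL12, against 333 and 327 CPM in Mock (1.499 ± 0.03 SE, adjusted p = 1.51e-25), and Nkg7, a granule membrane protein, at 689 and 676 CPM in IL12, against 289.6 and 296 CPM in Mock. The less abundant granzyme Gzmk stood at 24.5 and 23.9 CPM in IL12, against 2.21 and 2.32 CPM in Mock. Prf1, perforin, stood at 24.7 and 28.8 CPM in IL12, against 9.79 and 10.6 CPM in Mock, and Stx11 (1.44), a fusion protein of granule release, and Gzmd (2.04) rose. Gzmb, the most abundant granzyme, stood at 2288 and 1905 CPM in IL12, against 1970 and 1983 CPM in Mock, so that the IL12 libraries straddled the Mock libraries, and it did not pass (log2 fold change 0.09, adjusted p = 0.182). Without IL12 replicate 2 it passed at 0.21 (adjusted p = 0.000118), and without IL12 replicate 1 it stood at -0.05. Gzmc fell to 5.46 and 6.61 CPM in IL12, against 12.4 and 10.9 CPM in Mock. Killer lectin receptors, shared by NK cells and CD8 T cells, were higher in 8 of 11 and lower in 0, with a median log2 fold change of 1.43. Klrk1, the activating receptor NKG2D, stood at 141 and 135 CPM in IL12, against 42.2 and 43.9 CPM in Mock (1.68 ± 0.05 SE), and Klrc1, the inhibitory receptor NKG2A, at 18.3 and 16.6 CPM in IL12, against 5.26 and 5.41 CPM in Mock. Klrd1, the partner of NKG2A, stood at 105 and 102 CPM in IL12, against 88.9 and 96.0 CPM in Mock. Klrc2 (1.43), Klrb1f (1.22), Klrc3 (2.34), Klra7 (1.85) and Klre1 (1.09) rose at low levels, and Klrg1 (2.17, adjusted p = 0.0630), Klri2 (1.02, adjusted p = 0.110) and Klra5 (0.74, adjusted p = 0.231) did not pass. With genes under 1 CPM in 2 libraries left out, and likewise without Mock replicate 1, 5 members of the list rose.

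Costimulatory and inhibitory receptors rose side by side. Of 19 costimulatory genes 12 rose and 5 fell. Cd28, the main costimulatory receptor, stood at 715 and 706 CPM in IL12, against 265 and 276 CPM in Mock (1.39 ± 0.04 SE), and Icos, its relative, at 315 and 304 CPM in IL12, against 99.3 and 95.9 CPM in Mock. Tnfrsf9, the receptor 4-1BB, stood at 88.7 and 104 CPM in IL12, against 36.4 and 37.7 CPM in Mock, Tnfrsf4, the receptor OX40, at 20.1 and 21.4 CPM in IL12, against 7.67 and 8.69 CPM in Mock, and Tnfrsf25, the receptor DR3, at 9.31 and 11.04 CPM in IL12, against 1.5 and 1.31 CPM in Mock. Slamf7 (1.90), Cd86 (1.76) and Slamf1 (1.39) were higher as well, and Cd27, a receptor of naive and memory T cells, was lower (-0.70 ± 0.04 SE). Of 21 inhibitory genes 12 rose and 5 fell, the latter a share close to the 23.6% over all tested genes. Lilrb4a, an inhibitory Ig-like receptor, stood at 61.5 and 63.5 CPM in IL12, against 9.42 and 11.5 CPM in Mock (2.58 ± 0.08 SE), and Btla at 65.0 and 59.96 CPM in IL12, against 19.6 and 19.6 CPM in Mock. The checkpoint genes Pdcd1 (40.9 and 49.8 CPM in IL12, against 17.6 and 17.6 CPM in Mock) and Lag3 (156 and 168 CPM in IL12, against 77.4 and 79.8 CPM in Mock) rose, and Havcr2, the receptor Tim-3, rose less (0.73 ± 0.10 SE). The ectoenzymes Entpd1 and Nt5e, which turn extracellular ATP into adenosine, rose by 1.26 ± 0.07 and 1.37 ± 0.08 SE. Cd160 fell to 20.4 and 19.2 CPM in IL12, against 56.2 and 54.3 CPM in Mock, and Cd244a (-1.65) fell too.

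Receptors for ATP and adenosine held some of the largest changes. Of 18 tested genes of this group, 9 rose, all by at least 2-fold, and 5 fell. P2rx7, an ATP-gated channel, stood at 66.9 and 73.6 CPM in IL12, against 1.39 and 1.70 CPM in Mock (5.51 ± 0.11 SE, adjusted p = 9.31e-28). Its chromosomal neighbour P2rx4 stood at 8.23 and 8.24 CPM in IL12, against 7.27 and 7.44 CPM in Mock, with a log2 fold change of 0.16 ± 0.11 SE. The adenosine receptors Adora2a (83.3 and 82.9 CPM in IL12, against 31.4 and 31.1 CPM in Mock) and Adora2b (4.34 and 4.84 CPM in IL12, against 1.33 and 1.76 CPM in Mock) rose, as did the nucleotide receptors P2ry14 (1.59) and P2ry12 (2.37), while P2ry1 (-2.54) fell at about 1 CPM in Mock. The tested genes beside P2rx3, Slc43a3 (0.89) and Ssrp1, also rose. Ssrp1, a histone chaperone subunit, stood at 1268 and 1262 CPM in IL12, against 429.7 and 421 CPM in Mock (1.57 ± 0.03 SE). Tnks1bp1, which is not next to P2rx3 among tested genes, stood at 93.8 and 96.2 CPM in IL12, against 17.4 and 17.0 CPM in Mock.

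Transcription factors of effector cells rose, with 21 of 35 higher, 5 lower and a median log2 fold change of 0.51. Tbx21, the type 1 master factor T-bet, stood at 181 and 178 CPM in IL12, against 79.5 and 80.0 CPM in Mock, and Eomes, its relative, at 15.2 and 11.3 CPM in IL12, against 13.7 and 13.2 CPM in Mock, which did not pass (adjusted p = 0.866). Irf8 rose to 236 and 245 CPM in IL12, against 46.9 and 49.6 CPM in Mock (2.32 ± 0.05 SE), Zbtb32 to 225 and 211 CPM, against 58.7 and 63.0 CPM in Mock, and Egr1 to 54.0 and 50.8 CPM, against 13.98 and 16.1 CPM in Mock. Hlx (5.39), Hopx (2.71), Bhlhe40 (2.21) and Zeb2 (1.65) rose as well, as did Prdm1 (1.36), Hif1a (1.02) and Id2 (0.82), while Nr4a3 (-1.39) and Tox (-0.57) fell. The AP-1 list had 10 of 13 members higher and 0 lower. Jun stood at 295 and 292 CPM in IL12, against 30.6 and 33.6 CPM in Mock (3.19 ± 0.06 SE, adjusted p = 1.39e-28), Junb at 241 and 243 CPM in IL12, against 80.3 and 85.1 CPM in Mock, and Fosl2 at 83.5 and 90.9 CPM in IL12, against 36.3 and 35.0 CPM in Mock. Fos rose at low levels (2.97 and 3.24 CPM in IL12, against 0.425 and 0.357 CPM in Mock). Maff (1.05), Batf3 (0.69), Atf3 (0.53), Mafk (0.40), Batf (0.29) and Mafg (0.19) rose, and Fosl1 (1.86, adjusted p = 0.0607), Fosb (0.46, adjusted p = 0.206) and Jund (0.02, adjusted p = 0.787) did not pass. Of 20 NF-κB genes 8 rose, led by Bcl3 (1.59) and Nfkbiz (1.08). The 4 that fell, with Rel (-0.59) lowest, were a share close to the 23.6% over all tested genes.

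Genes of naive and memory cells fell more often than they rose, with 21 of 36 lower, 13 higher and a median log2 fold change of -0.30. Tcf7, the factor TCF1 of naive and memory cells, stood at 439 and 418 CPM in IL12, against 1031 and 1013 CPM in Mock (-1.25 ± 0.04 SE, adjusted p = 4.67e-23). Id3, a memory-associated inhibitor of E proteins, fell to 11.2 and 9.12 CPM in IL12, against 41.0 and 41.0 CPM in Mock, and Klf2, which maintains S1pr1, to 31.8 and 29.5 CPM, against 86.8 and 91.7 CPM in Mock. Rgs10 (-1.55), Izumo1r (-1.82) and Slfn5 (-1.61) fell too. Some members went the other way, among them Gpr183, the stem cell factor receptor Kit (1.77), Fam241a (1.56), Btg1 (1.53), Bcl6 (1.39) and Satb1 (1.10).

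Nuclear receptors and enzymes of DNA methylation were lower more often than higher. Of 23 nuclear receptors 11 fell and 2 rose. After Rxra and Nr4a3, the largest falls were the clock repressor Nr1d2 (-1.27), the estrogen receptor Esr1 (-1.24), Rarg (-1.07) and Thra (-0.73), and the glucocorticoid receptor Nr3c1 stood at 58.1 and 57.5 CPM in IL12, against 84.9 and 87.8 CPM in Mock. Of 11 genes that write, read or remove DNA methylation, 9 fell and 1 rose, all by less than 2-fold. Without IL12 replicate 2, and likewise without Mock replicate 1, 6 fell. Tet3, a methylcytosine dioxygenase, stood at 113 and 123 CPM in IL12, against 181 and 186 CPM in Mock. Dnmt3b (-0.40), Dnmt3a (-0.33), Dnmt1 (-0.21), Tet2 (-0.17), Mbd1 (-0.14), Uhrf1 (-0.12) and Mbd2 (-0.10) fell, the glycosylase Tdg (0.55) rose, and Tet1 (0.22, adjusted p = 0.205) did not pass.

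Interferon-inducible genes did not move as 1 group. The guanylate-binding proteins and immunity-related GTPases, known to be strongly induced by interferon-γ, rose in 11 and fell in 7 of 19 members. Gbp2 stood at 2121 and 2082 CPM in IL12, against 218 and 219.7 CPM in Mock (3.26 ± 0.04 SE, adjusted p = 6.78e-33). Its neighbours Gbp5 (189 and 181 CPM in IL12, against 63.1 and 61.5 CPM in Mock), Gbp3 (240.2 and 230.3 CPM in IL12, against 80.8 and 78.4 CPM in Mock) and Gbp7 (394 and 401 CPM in IL12, against 159 and 152 CPM in Mock) rose with it, and Igtp (0.89) and Iigp1 (0.69) rose less. Gbp10 fell to 7.12 and 6.54 CPM in IL12, against 13.9 and 14.4 CPM in Mock, and the GTPase Gm4951 (-0.85) fell too. Genes of this family are close relatives, so reads may be split among them in counting.

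Genes typical of type I interferon were lower more often than higher, with 28 of 49 lower, 8 higher and a median log2 fold change of -0.42. Irf7, the factor that amplifies this response, stood at 8.07 and 10.2 CPM in IL12, against 31.4 and 30.9 CPM in Mock (-1.77 ± 0.09 SE, adjusted p = 3.63e-17). Rtp4 and Cmpk2 had the largest falls of the list, followed by Rsad2, the antiviral enzyme viperin (0.196 and 0.315 CPM in IL12, against 1.81 and 1.22 CPM in Mock), and the RNA sensor gene Oas1a (-2.03). Usp18, above, and Ifi44 were among the 8 that rose. Ifi44 had 278 counts summed across the IL12 libraries and 3 across the Mock libraries, a ratio of 102 (95% counting interval 34.7 to 499.5). Among the interferon regulatory factors, Irf9 (-0.69) and Irf5 (-0.93) fell beside Irf7, Irf8 and Irf4 (0.41) rose, and Irf1 (0.05, adjusted p = 0.282), Irf3 (0.03, adjusted p = 0.666) and Irf2 (-0.02, adjusted p = 0.797) did not pass. The Ifi200 DNA sensor family had 4 members higher and 4 lower of 10: Ifi204 (3.16), Ifi211 (2.998), Ifi214 (0.72) and Ifi209 (0.29) rose, Ifi208 (-1.93), Ifi213 (-0.52), Mndal (-0.48) and Ifi203 (-0.22) fell, and Ifi206 (0.09, adjusted p = 0.0647) and Aim2 (-0.03, adjusted p = 0.663) did not pass.

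The promoters of Gbp2, which rose, and Oas1a, which fell, are shown because both hold the letters of an interferon-stimulated response element, GAAANNGAA on either strand, in capitals. In Gbp2 (chr3:142620413-142620712, plus strand, GRCm38.p6) 1 match, read on the opposite strand, lies 58 bases before the start. In Oas1a (chr5:120907476-120907775, minus strand) 2 matches that overlap each other begin 20 and 14 bases before it.
Gbp2: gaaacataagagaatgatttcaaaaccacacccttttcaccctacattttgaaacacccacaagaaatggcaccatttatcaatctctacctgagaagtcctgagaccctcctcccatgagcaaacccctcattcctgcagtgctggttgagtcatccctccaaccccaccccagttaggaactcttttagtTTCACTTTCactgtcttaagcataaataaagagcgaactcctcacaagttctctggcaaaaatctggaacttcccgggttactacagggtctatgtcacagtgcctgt
Oas1a: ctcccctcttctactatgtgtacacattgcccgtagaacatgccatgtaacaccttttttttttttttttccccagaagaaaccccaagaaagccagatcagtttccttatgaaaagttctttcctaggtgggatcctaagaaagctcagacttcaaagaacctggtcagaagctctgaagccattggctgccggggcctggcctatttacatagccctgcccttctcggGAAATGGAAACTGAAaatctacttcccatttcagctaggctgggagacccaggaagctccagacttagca
The motif occurred in 8.56% of all promoter windows and 8.63% of tested genes with a window. It occurred in 22 of 37 type I genes (59.5%) and in 10 of 11 guanylate-binding and immunity-related GTPase genes (90.9%). Among genes at least 2-fold higher 56 of 446 held it (12.6%), and among genes at least 2-fold lower 43 of 442 (9.73%).

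Antigen presentation genes changed in both directions. Of 22 MHC class I and immunoproteasome genes 6 rose and 8 fell, none by 2-fold, and on library totals alone 3 rose and 13 fell. The share of 6 higher was near the 23.0% over all tested genes. The chaperone Pdia3 (0.31), the proteasome activator Psme1 (0.27) and the peptidase Erap1 (0.25) were among those that rose, and the class I genes H2-Q6 (-0.32) and H2-T22 (-0.22) and the immunoproteasome subunit Psmb10 (-0.21) among those that fell. Of 11 class II genes 1 rose, H2-Ab1 (0.48), and 4 fell: H2-Oa (-1.61), H2-Ob (-1.11), H2-DMb2 (-0.68) and H2-DMa (-0.65). Without IL12 replicate 2 H2-Ab1 stood at 0.21 and did not pass. Cd74 (0.18, adjusted p = 0.0518), H2-Eb1 (0.14, adjusted p = 0.454), H2-Aa (-0.04, adjusted p = 0.810), Ciita (-0.08, adjusted p = 0.852), H2-DMb1 (-0.35, adjusted p = 0.404) and H2-Eb2 (-0.61, adjusted p = 0.347) did not pass.

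To see where the response to IL-12 differs from that to IL-18, IL12 was tested directly against DRIL18, a contrast that shares the IL12 libraries with the one above. Of the tested genes 2987 (18.9%) were higher and 3248 (20.6%) lower in IL12. On library totals alone the split was 1943 higher and 4786 lower, with the median of all tested genes at -0.11, against -0.01 with TMM factors. Ifng stood at 209.8 and 189 CPM in IL12 and 17.5 and 17.2 CPM in DRIL18 (log2 difference 3.52 ± 0.05 SE). Of the type I interferon genes 33 were lower in IL12 than in DRIL18 and 6 higher. Of the guanylate-binding and immunity-related GTPases 14 were lower and 4 higher, and Gbp2 stood at 2121 and 2082 CPM in IL12 and 717 and 746 CPM in DRIL18. Gbp10 stood at 7.12 and 6.54 CPM in IL12 and 42.4 and 40.0 CPM in DRIL18. All but 1 of the class II genes, 10 of 11, and 18 of 22 class I genes were lower in IL12. Cd74, the invariant chain, stood at 19.0 and 17.8 CPM in IL12 and 79.9 and 80.3 CPM in DRIL18 (-2.12 ± 0.06 SE), and the class II activator Ciita at 1.08 and 1.04 CPM in IL12 and 4.33 and 3.74 CPM in DRIL18. Ifngr2 stood at 1.44 and 1.32 CPM in IL12 and 13.4 and 12.9 CPM in DRIL18.

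Serpinb5, Unc5c, Cxcr1, P2rx3 and Il1rl1 had the 5 largest log2 differences, IL12 minus DRIL18, at a mean of 5 CPM or more. No bound or count ratio was worked out against DRIL18, so their order is not settled where DRIL18 held few counts. Il1rl1 stood at 104 and 103 CPM in IL12 and 0.577 and 0.619 CPM in DRIL18, and P2rx3 at 94.4 and 94.5 CPM in IL12 and 0.260 and 0.118 CPM in DRIL18. Il18, Rtp4, Itgae, Serpina3f and Rxra had the 5 most negative. Il18, the gene of the cytokine delivered to DRIL18, stood at 1.83 and 1.73 CPM in IL12 and 412 and 401 CPM in DRIL18. Itgae stood at 7.09 and 7.52 CPM in IL12 and 144 and 138 CPM in DRIL18. Serpina3f, a serine protease inhibitor, stood at 1.73 and 1.89 CPM in IL12 and 29.2 and 30.2 CPM in DRIL18. Il18r1 stood at 814 and 841 CPM in IL12, 39.0 and 40.7 CPM in DRIL18 and 73.6 and 72.0 CPM in Mock.

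**Figure D3:**
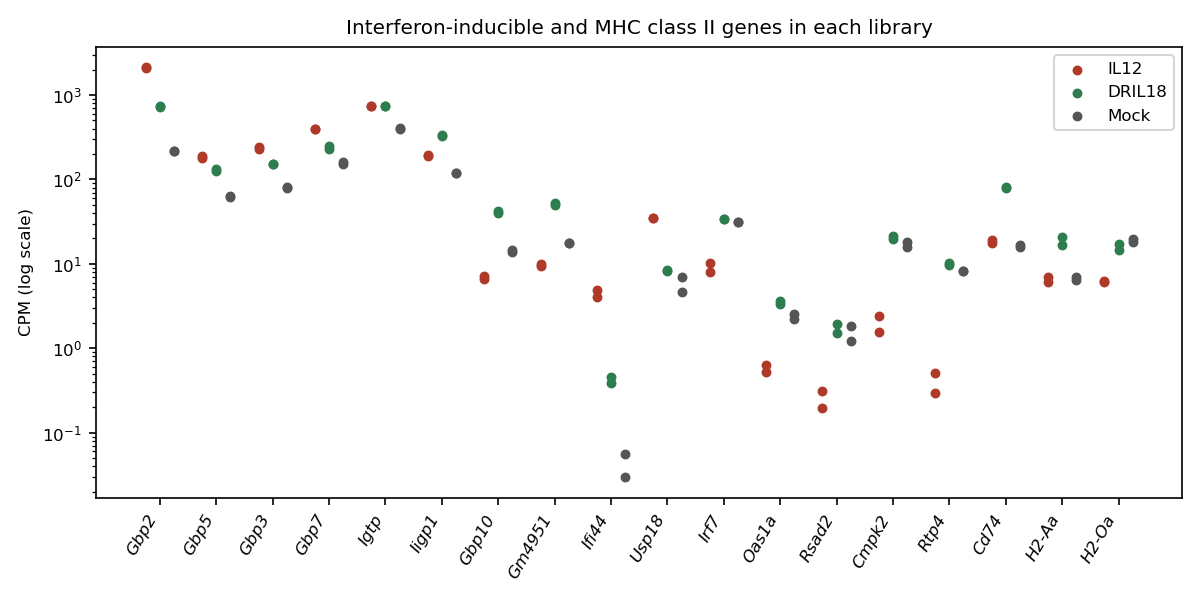
CPM on a log scale of 18 interferon-inducible and MHC class II genes in each library, with IL12 in red, DRIL18 in green and Mock in grey. Gbp2, Gbp5, Gbp3, Gbp7, Ifi44 and Usp18 are highest in IL12. Gbp10, Gm4951, Irf7 to Rtp4 and H2-Oa are lowest there, and Iigp1, Cd74 and H2-Aa are highest in DRIL18.

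Glycolysis genes rose with IL-12. Of 24 tested identifiers 19 were higher, 1 lower, and the median log2 fold change was 0.91. Gapdh stood at 4389 and 4664 CPM in IL12, against 2579 and 2620 CPM in Mock, Pkm, pyruvate kinase, at 2469 and 2752 CPM in IL12, against 1275 and 1306 CPM in Mock, and Ldha, lactate dehydrogenase, at 2183 and 2527 CPM in IL12, against 1268 and 1253 CPM in Mock, which put them among the 6 genes with the largest gain in CPM. Pgam1 (392 and 458 CPM in IL12, against 140.5 and 145 CPM in Mock) and Tpi1 (854 and 1014 CPM in IL12, against 342 and 349 CPM in Mock) rose more. The glucose transporters Slc2a1 (1.82) and Slc2a3 (1.17), hexokinase Hk2 (2.07), the lactate exporter Slc16a3 (2.14), Aldoc (2.19) and Pgk1 (1.14) were higher, and the lactate dehydrogenase chain Ldhb (-0.73) was lower. IL12 replicate 2, whose column carries the mark bis, was above IL12 replicate 1 in 23 of 24 of these identifiers, and in 47.4% of all tested genes. The summed level was 18802 and 21456 CPM in IL12 and 10634 and 10829 CPM in Mock, and without IL12 replicate 1 or 2 the higher members numbered 20 and 18. Without IL12 replicate 2, 3 members were lower.

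The hypoxia list had the same order of libraries, with IL12 replicate 2 above replicate 1 in 17 of 19 genes. Of these 16 rose and 1 fell, or 0 fell without IL12 replicate 2 or Mock replicate 2. Egln3, the prolyl hydroxylase that is itself a target of hypoxia-inducible factor, stood at 340.5 and 387 CPM in IL12, against 59.9 and 61.5 CPM in Mock (2.58 ± 0.05 SE), Ak4, a mitochondrial adenylate kinase, at 31.5 and 41.0 CPM in IL12, against 3.85 and 4.55 CPM in Mock, and Vegfa, the angiogenic growth factor, at 28.8 and 34.1 CPM in IL12, against 6.14 and 5.56 CPM in Mock. P4ha2 (2.64) and P4ha1 (1.31), collagen prolyl hydroxylases, Car12 (1.37), Bnip3 (1.26) and Ankrd37 (1.195) rose as well. Hif1a itself stood at 452 and 405 CPM in IL12, against 209 and 214 CPM in Mock. In Egln3, Ak4, Vegfa and Hif1a both IL12 libraries were above both Mock libraries, as in 35.1% of all tested genes.

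Most cholesterol synthesis genes rose. Of 29 genes 25 rose and 1 fell (-0.17, the sterol reductase gene Lbr), with a median log2 fold change of 0.93, and IL12 replicate 2 was above replicate 1 in 13 of them. Lss, lanosterol synthase, stood at 176 and 179 CPM in IL12, against 55.7 and 56.8 CPM in Mock, and Insig1, the sterol sensor, at 102 and 97.7 CPM in IL12, against 35.3 and 40.2 CPM in Mock. Fdps (1.68), Cyp51 (1.47), Msmo1 (1.45), Idi1 (1.16) and Hsd17b7 (1.12) were among the largest rises. A sterol element with the letters TCACNCCAC was found on either strand in 1 of 20 genes of the list with a promoter window (5.0%) and in 1.40% of tested genes with a window. Scd1 (1.67), the gene of a fatty acid desaturase and not of a cholesterol synthesis enzyme, rose too.

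Sterol efflux genes split, with 6 of 15 higher and 6 lower. The exporter Abca1 rose (8.10 and 9.47 CPM in IL12, against 4.13 and 3.72 CPM in Mock) while the exporter Abcg1 fell (28.5 and 28.6 CPM in IL12, against 64.8 and 68.4 CPM in Mock). Mylip (1.10), a ubiquitin ligase, Srebf1 (0.61), Apoe (0.54), Lpcat3 (0.34) and Npc2 (0.10) rose, Rxra, Soat2 (-0.43), Rxrb (-0.27), Npc1 (-0.23) and Nr1h2 (-0.12) fell, and Nr1h3 (0.18, adjusted p = 0.705), Soat1 (0.08, adjusted p = 0.189) and Abcg4 (-0.21, adjusted p = 0.795) did not pass. Fatty acid synthesis had 13 genes higher and 3 lower of 17. The desaturase Scd2 stood at 1565 and 1573 CPM in IL12, against 801 and 847 CPM in Mock, the elongase Elovl6 at 127 and 127 CPM in IL12, against 58.5 and 56.0 CPM in Mock, and Me1 (2.74) and Fads2 (1.35) rose as well, while Acss2 (-0.89), an acetyl-CoA synthetase, fell. Of 16 oxidation genes 3 rose, among them the dehydrogenases Acadl (1.42) and Acadvl (0.25), and 5 fell. Cpt1a, the carnitine shuttle that admits fatty acids to mitochondria, stood at 46.2 and 44.3 CPM in IL12, against 77.8 and 79.2 CPM in Mock.

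**Figure D4:**
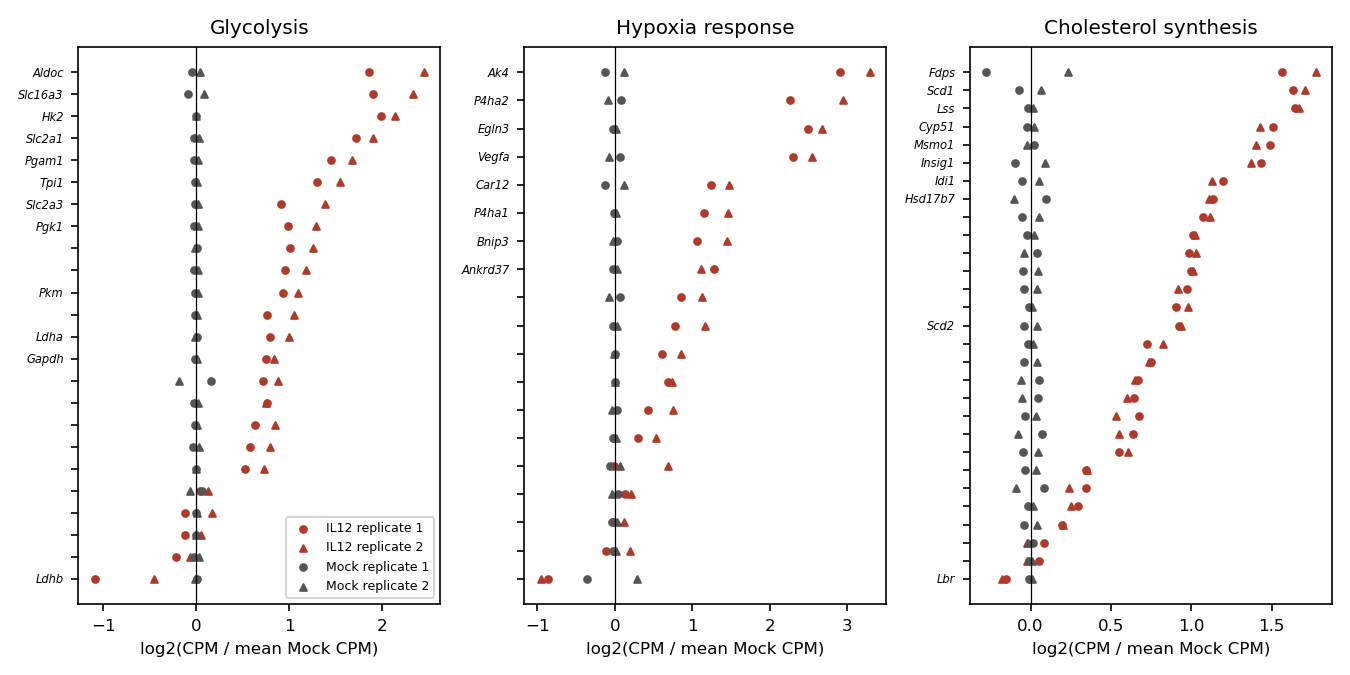
Log2 ratio of each library's CPM to the mean Mock CPM for every tested member of the glycolysis, hypoxia and cholesterol lists, with names for those given in the text. Red is IL12 and grey Mock, circles replicate 1 and triangles replicate 2. In glycolysis 23 of 24 and in hypoxia 17 of 19 red triangles lie right of the red circle, and in cholesterol synthesis 13 of 29.

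Mitochondrial and ribosomal genes shifted by small amounts. Of 39 respiratory chain subunits 28 rose and 0 fell, with a median log2 fold change of 0.19. Cytochrome c, Cycs, rose most (131 and 129 CPM in IL12, against 71.4 and 70.1 CPM in Mock). Of 42 ribosomal protein genes 37 rose and 0 fell at a median of 0.17, with Rps2 highest (2637 and 2547 CPM in IL12, against 2107 and 2106 CPM in Mock). These counts depended on the scaling, and on library totals alone 17 respiratory and 19 ribosomal protein genes rose, and 2 and 1 fell. The ribosomal protein genes also moved together between replicates. Mock replicate 2 was above Mock replicate 1 in 1 of 42, and in 7785 of all 15777 tested genes. Their summed level was 50881 and 50812 CPM in IL12 and 45829 and 44365 CPM in Mock. Of 23 TCA cycle genes 12 rose and 2 fell, against 7 and 7 on library totals alone, and 1 fell when any 1 of the 4 libraries was left out. Idh2, mitochondrial isocitrate dehydrogenase, stood at 23.9 and 23.8 CPM in IL12, against 51.1 and 48.3 CPM in Mock (-1.06 ± 0.06 SE), and Idh1 (0.59) and Mdh2 (0.32) rose.

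Genes of MYC, the PIM kinases and ribosome biogenesis rose in 24 and fell in 3 of 28 members. In 5 of the 28 IL12 replicate 2 was above IL12 replicate 1, against 47.4% of all tested genes. Pim2, a survival kinase induced by cytokines, stood at 906 and 867 CPM in IL12, against 98.4 and 107 CPM in Mock, and Pim1 at 544 and 531 CPM in IL12, against 171 and 183 CPM in Mock. Myc stood at 255 and 269 CPM in IL12, against 145 and 147 CPM in Mock, and its partner Max (0.87) rose too. The MYC antagonists split, with Mxd1 (0.97) higher and Mxd4 (-2.11) and Mxd3 (-0.75) lower, and Mycn (-1.22) was lower. Of 38 integrated stress and amino acid genes 22 rose and 3 fell, among them the transporters Slc7a5 (284 and 293 CPM in IL12, against 169 and 176 CPM in Mock) and Slc38a2 (335 and 328 CPM in IL12, against 204 and 213 CPM in Mock) and the factor Atf4 (0.56). Heat shock proteins rose in 13 and fell in 0 of 18, led by Hsp90aa1 (1335 and 1270 CPM in IL12, against 835 and 804 CPM in Mock). In 2 of the 18 IL12 replicate 2 was above IL12 replicate 1. The unfolded protein response had 9 genes higher and 1 lower of 25 at a median of 0.04, and on library totals alone 7 lower.

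Cell cycle genes were lower more often than higher, by small amounts. Of 50 genes 22 fell and 10 rose, none by 2-fold. Mki67, a proliferation marker, stood at 1105 and 1176 CPM in IL12, against 1597 and 1567 CPM in Mock (-0.47 ± 0.04 SE), and the mitotic factor Foxm1 at 184 and 179 CPM in IL12, against 244 and 235 CPM in Mock. Cdk6 (-0.50), Cdc25c (-0.48), Ccnb2 (-0.37) and Bub1b (-0.35) fell, and Ccnd3 (0.77) and Pcna (0.64) rose. Among cell cycle inhibitors and p53 targets 11 of 23 rose and 5 fell, against 9 that fell on library totals alone. The inhibitor Cdkn1a stood at 159 and 129 CPM in IL12, against 63.7 and 59.6 CPM in Mock, and Cdkn2b (1.76), Cdkn2a (1.201) and Zmat3 (0.71) rose, while Cdkn2c (-0.58) and Ccng2 (-0.56) fell. In the BCL2 family 7 of 15 rose and 4 fell, or 2 with the mark bis as a covariate or without IL12 replicate 2, Mock replicate 1 or Mock replicate 2. The proapoptotic Bcl2l11, or Bim, stood at 156 and 162 CPM in IL12, against 57.8 and 61.4 CPM in Mock, and the proapoptotic Pmaip1 (1.30), Bax (0.33), Bad (0.24) and Bak1 (0.23) rose beside the prosurvival Mcl1 (0.44) and Bcl2a1d (0.60). The prosurvival Bcl2 (-0.20), Bcl2l2 (-0.27) and Bcl2l1 (-0.13) and the proapoptotic Bmf (-1.03) fell, and Bid (0.04, adjusted p = 0.726), Bcl2a1b (-0.04, adjusted p = 0.940), Bbc3 (-0.18, adjusted p = 0.112) and Bik (-0.24, adjusted p = 0.457) did not pass. Bcl2l1, with an adjusted p of 0.0476, lost the call in 10 of 14 alternatives, among them DESeq2, limma-voom, the replicate block (adjusted p = 0.0534) and the fit on 4 libraries, Bcl2a1d lost it in 8 and Bad in 6.

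Genes of the T cell receptor and of p38 signalling changed in both directions. Of 30 T cell receptor and proximal genes 11 rose and 11 fell, and on library totals alone 5 rose. Without IL12 replicate 1, 7 of them rose. The kinase Fyn stood at 443 and 441 CPM in IL12, against 243 and 246 CPM in Mock, and the negative regulator Cd5 at 52.6 and 52.3 CPM in IL12, against 95.9 and 94.3 CPM in Mock. In the GADD45 and p38 list 4 of 11 rose and 4 fell. Gadd45g, an activator of p38 signalling known as an IL-12 target, stood at 183 and 186 CPM in IL12, against 23.2 and 19.9 CPM in Mock, and the kinases Map3k8 (129 and 126 CPM in IL12, against 32.2 and 35.4 CPM in Mock) and Map3k5 (1.04) and Gadd45b (0.34) rose. Map2k6 (-1.67), Mapk12 (-1.36), Map3k4 (-0.64) and Mapk14 (-0.13) fell, and Gadd45a (-0.40, adjusted p = 0.386), Map2k3 (-0.03, adjusted p = 0.599) and Mapk11 (adjusted p = 0.994) did not pass. Of 18 feedback inhibitors 8 rose, led by Spry1 (1.58), Rgs1 (1.48), Dusp4 (1.14) and Dusp16 (1.12), and 4 fell, led by Rgs2 (-1.24).

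Among guidance genes and protease inhibitors, the share of guidance genes higher and the share of serpins lower were close to those over all tested genes, 23.0% and 23.6%. Of 24 semaphorin and guidance genes 6 rose and 9 fell. Sema7a, a membrane-bound semaphorin of activated T cells, stood at 16.5 and 16.2 CPM in IL12, against 0.453 and 0.863 CPM in Mock (4.64 ± 0.18 SE), and Sema6d at 8.20 and 7.33 CPM in IL12, against 0.679 and 0.833 CPM in Mock. Sema6d stood at 7.99 and 9.49 CPM in DRIL18, and did not differ between IL12 and DRIL18 past the test (-0.17 ± 0.11 SE, adjusted p = 0.210). Nrp1 (1.17) and Sema4f (1.03) rose and Unc5b (-2.68) and Sema4c (-1.22) fell. Of 12 serpins 4 rose, Serpinb5, Serpine2 (1.22), Serpinb1a (0.72) and the granzyme B inhibitor Serpinb9 (0.64), and 3 fell, Serpini1 (-2.01), Serpinb6a (-0.38) and Serpinb6b (-0.29). Serpinb1b (1.11, adjusted p = 0.288), Serpinf1 (0.60, adjusted p = 0.120), Serpina3f (0.49, adjusted p = 0.0605), Serpina3g (-0.05, adjusted p = 0.755) and Serpinb9b (-1.26, adjusted p = 0.552) did not pass.

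**Figure D5:**
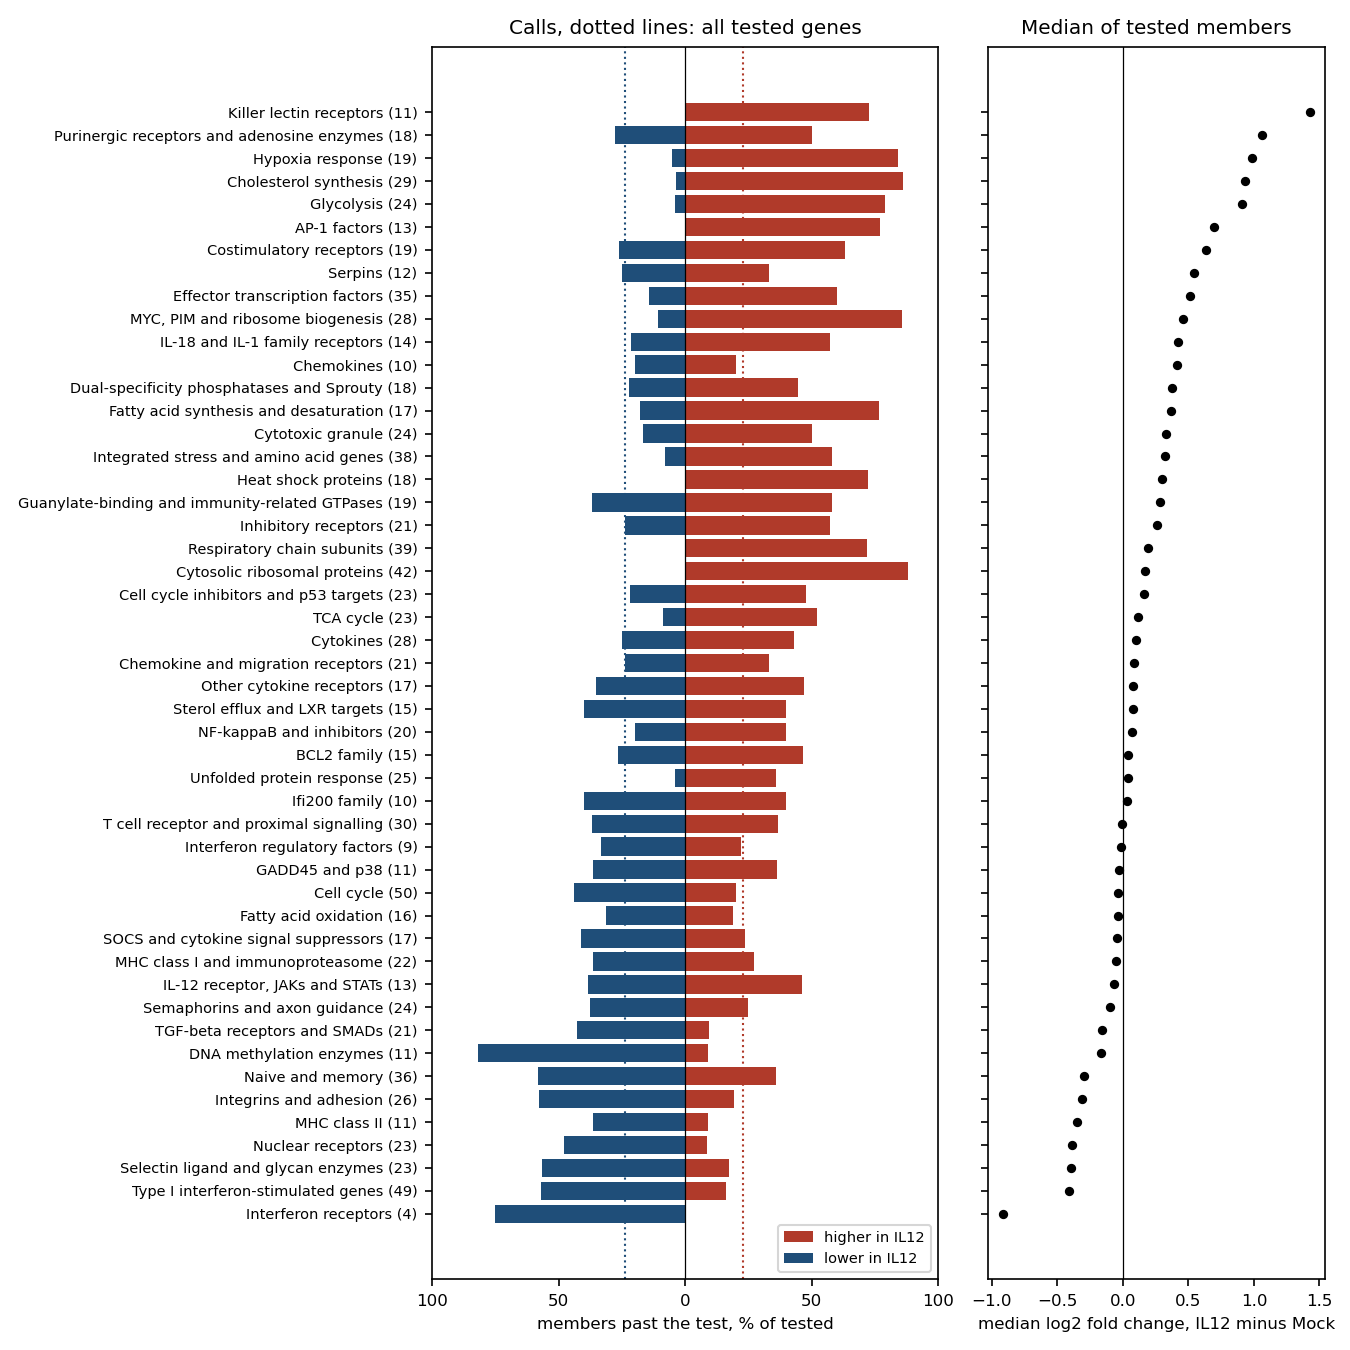
For 49 gene lists, with the number of tested members in brackets, the share of members higher (right, red) and lower (left, blue) in IL12, and the median log2 fold change, IL12 minus Mock. Dotted lines are the shares over all tested genes, 23.0% higher and 23.6% lower. The ribosomal protein list (37 of 42, but fewer on library totals alone), the cholesterol list (25 of 29) and the MYC and PIM list (24 of 28) reach furthest right. The DNA methylation list (9 of 11, or 6 without IL12 replicate 2 or Mock replicate 1) and the interferon receptors (3 of 4) reach furthest left.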

How the data were processed

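RNA of all 10 libraries was extracted with the Qiagen RNeasy kit and prepared with the TruSeq Stranded mRNA kit, per the labels' protocols. The authors used STAR 2.7.9, featureCounts, edgeR and limma with the mouse build mm39, per the submitters' processing notes, and deposited raw counts per gene and a table of log2 values. The deposited log2 values equal limma's voom values of the counts within 4.97e-14 in 13225 genes, and the tests here start from the counts. The annotation release, the strand setting of the counting, the mRNA given to Mock cells and the meaning of the mark bis on some columns, IL12 replicate 2 among them, are not given in the sources read. Symbols came from the GENCODE M21 annotation of GRCm38 for 52083 of 55359 identifiers. Of the tested genes 75 had no symbol. Promoter windows and chromosome neighbours came from RefSeq for GRCm38.p6, a build other than mm39, so coordinates belong to the windows alone. Genes without a window were left out of the shares of promoters with a motif.

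Genes were kept by edgeR's filterByExpr (edgeR 4.0.16, limma 3.58.1, R 4.3.3), libraries scaled by TMM, and all 10 libraries fitted together by group, so that 5 residual degrees of freedom share 1 estimate of the spread (common coefficient of variation 3.39%). Each contrast was tested with the quasi-likelihood test (glmQLFTest) and Benjamini-Hochberg adjustment over all tested genes, and with glmTreat against 1.5-fold. The procedure was tested on simulated data. The labels call the libraries biological replicates without naming animals or cultures, so p-values measure the spread between these libraries. Fitted fold changes of genes with 0 to 3 counts in a group depend on the prior count, so bounds or count ratios were worked out for them, against Mock only. No list median changed when genes with 0 counts in 1 group and more than 3 in the other were set at their bound. Genes with 1 to 3 counts kept their fitted value. A bound keeps the direction of a change, so this says little about the fold changes themselves. Alternatives were DESeq2 (1.42.0), limma-voom, other scalings and filters, a replicate block, the mark bis as a covariate, a fit on 4 libraries, and leaving out each library.

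The gene lists, members and rules were chosen with earlier results of these data known. Named were a fixed set, the 12 largest rises and falls at a mean of 5 CPM or more with groups that did not overlap, the 6 largest gains and losses of CPM, the 5 largest and smallest differences from DRIL18, up to 8 members with the largest changes per list, and all members of lists of 15 or fewer. Some members are not reported here and stay in the counts of their lists. Chosen after their values were seen were Prnp, the neighbours or nearby genes Fes, Gm15544, Blm, Ifngas1, Slc9a2, Slc43a3, Ssrp1, Tnks1bp1, Tmem50b and Haspin, and the list members Bcl6, Btg1, Cd27, Fasl, Hif1a, Id2, Itgb1, Klf2, Lbr, Ldhb, Lif, P2rx4, Prdm1, Satb1, Tnfsf11 and Tox.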

Additional observations from a re-analysis of the deposited data

How the results depend on the processing

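The counts of changed genes stayed within 1.5 times of their values in all 14 alternatives each. Genes called IL12 against Mock numbered 6403 to 7514 across other normalizations, filters and tools and 6010 to 6644 when 1 library was left out. Beyond 1.5-fold they numbered 832 in DESeq2 to 1330 on library totals alone, and 1049 to 1167 with 1 library left out. IL12 against DRIL18 gave 5302 to 6729, and 4893 to 5484 with 1 library left out. Where a library left 1 sample in an arm, that sample was assumed to vary like the other groups. With the replicate numbers as a block, 7316, 1239 and 6210 genes were called. Deviations of same-numbered libraries correlated between -0.0318 and 0.0493, so no shared deviation was seen over the tested genes. Whether same-numbered libraries share an animal or culture is not given, and these correlations cannot tell.

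Of 419 genes named in the text, Slc43a3 left out, 369 passed the test. Of these, 341 kept the call in every alternative and 28 lost it in at least 1, each when a library was left out (19 in other alternatives too), and none changed sign. Without IL12 replicate 1 the calls of Atf3 (0.110), Bad (0.0564), Bcl2a1d (0.0735), Cr2 (0.0528), Fcer2a (0.0777), Gadd45b (0.0771), Igkc (0.0742), Klra7 (0.0766), Lyz2 (0.267), Mafg (0.104), Mapk12 (0.0795), Nr1h2 (0.365) and Tet2 (0.598) were lost, with the adjusted p of edgeR in parentheses. Without IL12 replicate 2 the calls of Bad (0.0533), Bcl2a1d (0.0947), Bcl2l1 (0.413), Bcl2l2 (0.129), Ccl22 (0.250), Cr2 (0.0869), Fcer2a (0.0553), H2-Ab1 (0.0982), Igkc (0.128), Il1r2 (0.157), Klra7 (0.108), Klre1 (0.171), Mapk14 (0.382), Mbd1 (0.05002), Mbd2 (0.366), Npc2 (0.0766) and Uhrf1 (0.0592) were lost. Without Mock replicate 1 the calls of Atf3 (0.169), Bad (0.208), Bcl2a1d (0.291), Bcl2l1 (0.0566), Bcl2l2 (0.0553), Ccl22 (0.496), Cr2 (0.149), Gadd45b (0.137), Igkc (0.136), Il1r2 (0.136), Klra7 (0.267), Klrc3 (0.0744), Klrd1 (0.135), Klre1 (0.109), Lyz2 (0.773), Mafg (0.0566), Mapk14 (0.148), Mbd1 (0.107), Mbd2 (0.127), Npc2 (0.0865), Nr1h2 (0.132) and Tet2 (0.329) were lost. Without Mock replicate 2 the calls of Bcl2l1 (0.356), Bcl2l2 (0.0710), Cd3e (0.0512), Fcer2a (0.287), Igkc (0.0920), Il1r2 (0.0635), Klre1 (0.108), Mafg (0.0831), Mapk14 (0.0780), Mbd2 (0.198), Npc2 (0.0562), Nr1h2 (0.133), Serpinb6b (0.103) and Uhrf1 (0.0576) were lost. Without IL12 replicate 1 log2 fold changes that had passed the test moved by over 1.5 times to 0.21 for Bax, -2.45 for Ccl22, -0.45 for Ldhb, -0.91 for Lyz2, -0.20 for Mapk14, -0.067 for Nr1h2 and -0.055 for Tet2. Without IL12 replicate 2 they moved to -0.066 for Bcl2l1, -1.02 for Ccl22, 0.21 for H2-Ab1, 0.71 for Itga7, -3.60 for Lyz2, -0.061 for Mapk14, -0.057 for Mbd2 and -0.29 for Tet2. Without Mock replicate 1 they moved to 0.38 for Bcl2a1d, -0.74 for Ccl22, 1.19 for Klra7, -0.35 for Lyz2 and -0.11 for Tet2. Without Mock replicate 2 they moved to -0.082 for Bcl2l1, -0.90 for Fcer2a and 3.01 for Klra7. The cause was not tested. Of 50 named genes that did not pass, 14 passed in some alternative and 20 had log2 fold changes on both sides of 0. With 1 library left out these ranged as Abcg4 -0.50 to 0.16, Bcl2a1b -0.12 to 0.045, Bid -0.052 to 0.14, Ciita -0.20 to 0.061, Cxcl16 -0.37 to 0.89, Eomes -0.25 to 0.17, Gzmb -0.050 to 0.21, H2-Aa -0.15 to 0.060, H2-DMb1 -0.71 to 0.16, H2-Eb1 -0.019 to 0.29, Irak1 -0.018 to 0.039, Irf2 -0.049 to 0.022, Irf3 -0.0061 to 0.073, Jund -0.029 to 0.068, Map2k3 -0.070 to 0.0086, Mapk11 -0.087 to 0.082, Serpina3g -0.11 to 0.0053 and Tet1 -0.051 to 0.46. Sign changes elsewhere were Bid (-0.0072), Irak1 (-0.040), Irf3 (-0.020) and Jund (-0.031) on upper-quartile factors, Bid (-0.046), Gzmb (-0.0028), Irak1 (-0.079), Irf1 (-0.033), Irf3 (-0.058), Jund (-0.069) and Soat1 (-0.010) on library totals alone, Ciita (0.00085), Eomes (0.030) and H2-Aa (0.087) with the mark bis as a covariate, Mapk11 (0.0037) on DESeq2 size factors, Mapk11 (0.0073) with no filter, Mapk11 (0.0051) fitted on the 4 libraries only, Mapk11 (0.0038) in DESeq2. None of the genes with sign changes had passed the test in the fit reported above. Of 98 counts of list members 76 stayed within 1.5 times in every alternative. Of the other 22, those not given with their lists are as follows. On library totals alone members lower numbered 5 in the integrated stress list, 3 in glycolysis and 1 in the heat shock list. On upper-quartile factors they numbered 9 among p53 targets, 5 in the TCA cycle, 3 in the unfolded protein response, 2 in glycolysis and 1 in the heat shock list, and 7 T cell receptor genes were higher. Of the chemokines 1 was lower in DESeq2, limma-voom, with the mark bis as a covariate, with genes under 1 CPM in 2 libraries left out, and without IL12 replicate 2 or Mock replicate 1. Of the class II genes 2 were higher on DESeq2 size factors, with that filter and with the replicate block. The TCA cycle had 1 lower with no filter, in DESeq2 and with the mark bis as a covariate. Without IL12 replicate 1 there were 2 DNA methylation genes higher, and 1 heat shock and 2 unfolded protein response genes lower. Log2 fold changes of genes at a few CPM or less are limited by counts, and with 2 libraries a group the spread rests on 5 residual degrees of freedom over all 10 libraries.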

Other observations

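Large changes tended to sit beside one another on the chromosome in the RefSeq gene order of GRCm38.p6. Neighbours were the tested genes before and after a gene in order of start, without those that overlap it. Overlap was checked only between genes next to each other in this order. Of 652 genes at least 2-fold higher in IL12 with such a neighbour, 183 (28.1%) had a neighbour on either side that was also at least 2-fold higher. The same held for 1145 of 13928 tested genes (8.22%). Of 594 genes at least 2-fold lower, 112 (18.9%) had a neighbour at least 2-fold lower, against 1028 (7.38%). Gene families in tandem and pairs whose reads were split in counting are included in these shares, and their part in them was not tested.

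Neighbouring genes with large changes, not always in the same direction and in part overlapping, were also seen at 3 loci, chosen after their values were seen. Ankrd55 (6.95 in log2) lies near Il6st (2.49), with the predicted gene Gm48837, which overlaps Ankrd55, between them. Gm48837 had 150 counts summed across the IL12 libraries and 1 across the Mock libraries. Gm15326, the tested neighbour on the other side of Ankrd55, did not pass (0.31, adjusted p = 0.668). Rtp4 (-4.35), an interferon-inducible gene that fell, lies between St6gal1 (-1.69), a sialyltransferase gene that fell too, and Bcl6 (1.39), a transcriptional repressor gene that rose. Cmpk2 (-3.12), Rsad2 (-2.55) and Rnf144a (-2.92) are neighbours and all fell.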
